A study of Mus musculus with 10 samples.

Results

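The histone cluster genes of the mouse lung were taken as all gene symbols of the count table that begin with Hist1h, Hist2h, Hist3h or Hist4h, which gave 68 of the 24059 symbols. They encode the linker histone H1 (6 genes) and the core histones H2a (18 genes), H2b (19 genes, of which Hist3h2bb-ps is a pseudogene by its name), H3 (12 genes) and H4 (13 genes), so that 62 of the 68 were core genes. In the mm10 build 54 of them lie on chromosome 13, 10 on chromosome 3, 3 on chromosome 11 and 1 on chromosome 6. Lung RNA came from female C57Bl/6 mice of 14 weeks, whose whole lungs were flushed with PBS. All had eaten a high-fat, semipurified diet for 8 weeks, enriched either in fish oil (FO, 5 mice) or in coconut oil (CO, 5 mice), and neither group was on ordinary chow. Each mouse was 1 sample. The sequencing asked how the 2 fats change lung gene expression, and the linker genes are set here beside the core genes.

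A nucleosome is DNA wound around an octamer of the core histones H2A, H2B, H3 and H4, and linker histone H1 binds where the DNA enters and leaves it. Most cluster histone genes are copied many times in the genome, have no intron and are transcribed mainly in S phase, when new chromatin is assembled. Their mRNAs end in a conserved stem-loop in place of a poly(A) tail, although some members can also be made as polyadenylated mRNA in cells that do not divide. Libraries made by selecting poly(A) tails capture tailless mRNA poorly. The libraries here were prepared with TruSeq RNA v2, which selects poly(A) tails, or with riboZero, which removes ribosomal RNA, and whether both were used for these 10 mice, or which mouse had which, is not given in the sources used here.

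Mature histone mRNAs end in the stem-loop, and it is shown because it marks the tailless form of the members that carried counts and of those that did not. It was searched in the GENCODE vM21 transcript of each member (GRCm38, the assembly that mm10 names) and found in 44 of them, between 21 and 58 bases after the stop codon. Each sequence below is read 5′ to 3′ on the transcript strand, with the 16 bases of the stem-loop in capitals (6 stem bases, 4 loop bases and 6 stem bases) and 5 flanking bases on each side.
Hist1h1e: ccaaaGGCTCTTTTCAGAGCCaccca
Hist1h1c: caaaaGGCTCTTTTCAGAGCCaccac
Hist1h1d: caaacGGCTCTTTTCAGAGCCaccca
Hist1h1t: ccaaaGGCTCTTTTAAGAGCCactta
Hist1h2ad: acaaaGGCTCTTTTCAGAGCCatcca
Hist1h2be: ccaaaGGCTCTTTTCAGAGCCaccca
Hist1h3d: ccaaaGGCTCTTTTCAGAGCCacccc
Hist1h4d: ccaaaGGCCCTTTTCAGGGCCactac
Hist1h4h: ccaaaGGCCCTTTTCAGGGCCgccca

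The same 16 bases stood in 26 members of the H1, H2a, H2b and H3 classes, and the H4 genes carried versions with a different stem, 7 of them the one shown for Hist1h4d and Hist1h4h. Hist1h1e, Hist1h1c and Hist1h1d share their 16 bases with Hist1h2ad and Hist1h3d, which had no count in any mouse. Of the 44 genes with a stem-loop in their annotated transcript 33 had no count (75%), and of the 24 without one 18 had none (75%). The search took only a perfect 6-base stem opening with GG and a 4-base loop opening with TT. Of the 24, 15 have fewer than 20 annotated bases after the stop codon, Hist3h2bb-ps has no coding sequence, and the other 8 are Hist1h1a, Hist1h2bc, Hist1h2bq, Hist1h2br, Hist1h3g, Hist1h4a, Hist2h2be and Hist2h3b. Most of the 24 are thus annotated too short for a stem-loop to be found, and the 2 shares cannot show whether it separates counted from uncounted members. The annotated transcripts of Hist1h1e, Hist1h1c and Hist1h1d run on for 1153, 840 and 4884 bases after the stem-loop, with 0, 2 and 12 copies of the poly(A) signals AATAAA or ATTAAA there. The annotated transcript of Hist1h2bc runs 742 bases past its stop codon without a stem-loop, and that of Hist2h2be runs 2192 bases.

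Reads of near-identical copies cannot be assigned to 1 gene, so the coding sequence matters for what a count means. Bases 31 to 90 of the coding sequence, counted from the A of the start codon, are shown for the counted linker genes, with capitals where a base differs from Hist1h1e at the same position, because these 5 genes differ at many positions.
Hist1h1e: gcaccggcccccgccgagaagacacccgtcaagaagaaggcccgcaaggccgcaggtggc
Hist1h1c: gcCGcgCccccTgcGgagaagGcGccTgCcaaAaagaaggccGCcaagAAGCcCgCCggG
Hist1h1d: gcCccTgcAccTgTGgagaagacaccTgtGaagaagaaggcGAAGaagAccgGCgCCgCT
Hist1h1b: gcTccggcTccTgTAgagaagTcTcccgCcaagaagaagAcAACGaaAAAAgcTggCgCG
Hist1h1a: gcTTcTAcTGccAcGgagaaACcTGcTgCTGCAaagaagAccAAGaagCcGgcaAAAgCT

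The other linker genes differ from Hist1h1e at 19 to 29 of these 60 bases, compared position by position without gaps. Their coding sequences differ in length, so a shift by inserted or lost bases can add to this number. The H2a genes of the large cluster are shown next, with capitals where a base differs from Hist1h2ad, because 9 of the 13 are identical over the whole stretch (Hist1h2ad itself, Hist1h2ac, Hist1h2af, Hist1h2ag, Hist1h2ah, Hist1h2ak, Hist1h2an, Hist1h2ao and Hist1h2ap).
Hist1h2ad: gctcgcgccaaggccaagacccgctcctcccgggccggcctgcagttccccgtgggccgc
Hist1h2ac: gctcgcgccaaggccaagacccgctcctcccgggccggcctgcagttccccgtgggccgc
Hist1h2ae: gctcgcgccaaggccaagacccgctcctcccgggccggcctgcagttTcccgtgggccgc
Hist1h2ab: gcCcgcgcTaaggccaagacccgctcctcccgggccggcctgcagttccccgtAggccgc
Hist1h2aa: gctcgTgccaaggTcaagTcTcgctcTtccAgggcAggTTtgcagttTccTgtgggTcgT

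For H2b the reference is Hist1h2bc, the one core gene with more than 16 counts. Hist1h2bf and Hist1h2bg are identical to it over the stretch, while the chromosome 3 genes Hist2h2be and Hist2h2bb differ from it at 8 and 11 bases.
Hist1h2bc: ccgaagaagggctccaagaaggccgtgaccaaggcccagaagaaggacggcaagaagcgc
Hist1h2bf: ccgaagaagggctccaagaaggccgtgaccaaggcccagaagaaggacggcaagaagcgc
Hist1h2be: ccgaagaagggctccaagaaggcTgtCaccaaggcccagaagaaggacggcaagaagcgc
Hist2h2be: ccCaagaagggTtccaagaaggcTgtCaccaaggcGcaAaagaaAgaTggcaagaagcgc
Hist2h2bb: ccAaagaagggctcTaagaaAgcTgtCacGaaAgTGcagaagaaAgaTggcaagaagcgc

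To describe this sharing for whole genes, every stretch of 50 bases in the annotated transcripts of a gene was looked up in the transcripts of all genes outside its own span. In the coding sequence, the share of stretches found in no other gene ran from 73.5% in Hist1h1d to 100% in Hist1h1a, Hist1h1b and Hist1h1t, with a median of 89.0% over the 6 linker genes. Over the 61 core genes with a coding sequence the median was 24.0%, and 12 core genes had none at all, among them Hist1h2ad, Hist1h2ag, Hist1h2ao, Hist1h2ap, Hist1h4m, Hist1h4n, Hist2h2aa1 and Hist2h2aa2. Stretches of 36 or 100 bases, lengths added after the data had been seen, gave medians of 85.7% and 95.1% for the linker genes and 15.6% and 38.1% for the core genes. Hist1h2bc had 2.43% in its coding sequence and 69.4% over its whole transcript. Hist2h2be and Hist2h2bb had 100%. Over whole transcripts the median was 98.9% for the 6 linker genes and 50.4% for the 62 core genes. Among the 22651 other genes of the table that could be matched, the median over whole transcripts was 100%, and 3.40% of them were under 50%.

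Few counts fell on the histone genes. The table held 229766 to 1124963 counts a mouse, of which 21.8% to 87.0% fell on Rn45s, the precursor of ribosomal RNA, which left 45177 to 473254 counts on other genes. A floor of 3 counts in a mouse stood for 0.000634% to 0.00664% of those other counts, and floors and intervals cover counting error only. Over the 10 mice the 68 histone genes held 804 counts, 545 with FO and 259 with CO. No count was seen for 51 of the 68 genes (75%), against 9898 of the 24059 symbols of the table (41.1%). Among the linker genes it was 1 of 6, and among the core genes 50 of 62 (80.6%).

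The 6 linker genes held 613 of the 804 counts (76.2%). The 19 H2b genes held 181, the 13 H4 genes 6, the 18 H2a genes 4 and the 12 H3 genes 0, so that nearly all core counts were H2b counts. Hist1h1e alone had 412 counts (51.2% of all histone counts), Hist1h1c 157 (19.5%) and Hist1h2bc 150 (18.7%). Hist1h1d followed with 21, Hist1h1b and Hist2h2be with 16 each, and 11 further genes shared 32 counts.

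The genes without counts were mostly those that share much of their sequence. Of the 30 histone genes with under 50% of their whole-transcript stretches to themselves, 29 had no count (96.7%), the exception being Hist1h2bj with 1 count. Of the 25 genes from 50% to under 90%, 17 had none (68%), and of the 13 genes at 90% or more, 5 had none (38.5%). The same bands of the other genes of the table had no count in 87.8%, 59.8% and 37.2%. The 5 histone genes whose coding sequence was at least 70% their own and that still had no count were Hist1h1t and Hist1h2aa, both known from the testis, and Hist2h4, Hist3h2a and Hist4h4. The testis markers Prm1, Prm2 and Tnp1 had no count in any mouse either. All samples were lung of female mice, so this could hardly have come out otherwise, and nothing is read from it. How reads that match several genes were treated in the counting is not given in the sources used here, and the part of sequence sharing in the missing counts was not tested.

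Hist1h1e, which encodes the linker histone now named H1f4, lies at chr13:23620629-23622558 on the minus strand, and its end overlaps the annotated span of Hist1h2be. FO mice 1 to 5 had 50, 140, 23, 76 and 12 counts of it, and CO mice 1 to 5 had 8, 12, 15, 44 and 32. Scaled to CPM (counts scaled to the TMM effective library size of each mouse), they ranged from 39.3 to 148 with FO and from 32.9 to 63.9 with CO, with 3 FO mice (2, 3 and 4) above every CO mouse and FO mouse 5 below 4 of the 5 CO mice. The FO mean was 89.2 ± 42.8 CPM and the CO mean 47.6 ± 11.7 CPM (SD, n = 5 each).

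Hist1h1e was higher in the FO group by 0.92 ± 0.32 on the log2 scale (SE) in edgeR's quasi-likelihood test, with an unadjusted p = 0.0106 and a Benjamini-Hochberg adjusted p = 0.998. It was the single histone gene called at the study's threshold of an unadjusted p-value under 0.05, out of 3 that passed edgeR's default filter on low counts. Of all 2438 genes tested 71 were called (2.91%), and none had an adjusted p-value under 0.05 (1 with DESeq2). A two-sided exact permutation test of the CPM over all assignments of the diets to the mice gave p = 0.0794, where the smallest value it can give is 0.00794. With the library total alone as scaling, which moved the median log2 fold change of all genes to -0.55 and left 1 of 36 calls higher in FO mice (41 of 71 with TMM), the log2 fold change of Hist1h1e was 0.28 and the call was lost. Since whole lung was sequenced, more cells that make this RNA and more RNA per cell cannot be told apart.

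Hist1h1c (H1f2), at chr13:23738808-23740367 on the plus strand, is the other linker gene that passed the filter. It had 28, 41, 9, 24 and 4 counts in FO mice 1 to 5 and 4, 8, 13, 4 and 22 in CO mice 1 to 5. FO mice ranged from 13.1 to 58.1 CPM and CO mice from 4.20 to 42.6 CPM, so that the groups overlapped over most of their range, and CO mouse 4 was the lowest of all. The means were 32.9 ± 16.1 CPM and 26.1 ± 13.8 CPM (SD, n = 5 each), with a log2 fold change of 0.44 ± 0.45 (SE, edgeR, unadjusted p = 0.348, adjusted p = 0.998). The log2 fold change was 0.02 without CO mouse 4.

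Hist1h2bc (H2bc4), a core H2b gene at chr13:23684199-23692908 on the plus strand with 2 blocks of exon, was the most abundant core gene. It had 22, 27, 2, 22 and 10 counts in FO mice 1 to 5 and 3, 6, 16, 37 and 5 counts in CO mice 1 to 5. The CPM ranged from 12.9 to 32.7 with FO, within the CO range of 6.56 to 38.8. The means were 23.8 ± 7.46 CPM and 26.5 ± 13.2 CPM (SD, n = 5 each), with a log2 fold change of -0.12 ± 0.39 (SE, edgeR, unadjusted p = 0.763, adjusted p = 0.998). Without CO mouse 4 the log2 fold change was 0.22.

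**Figure D1:**
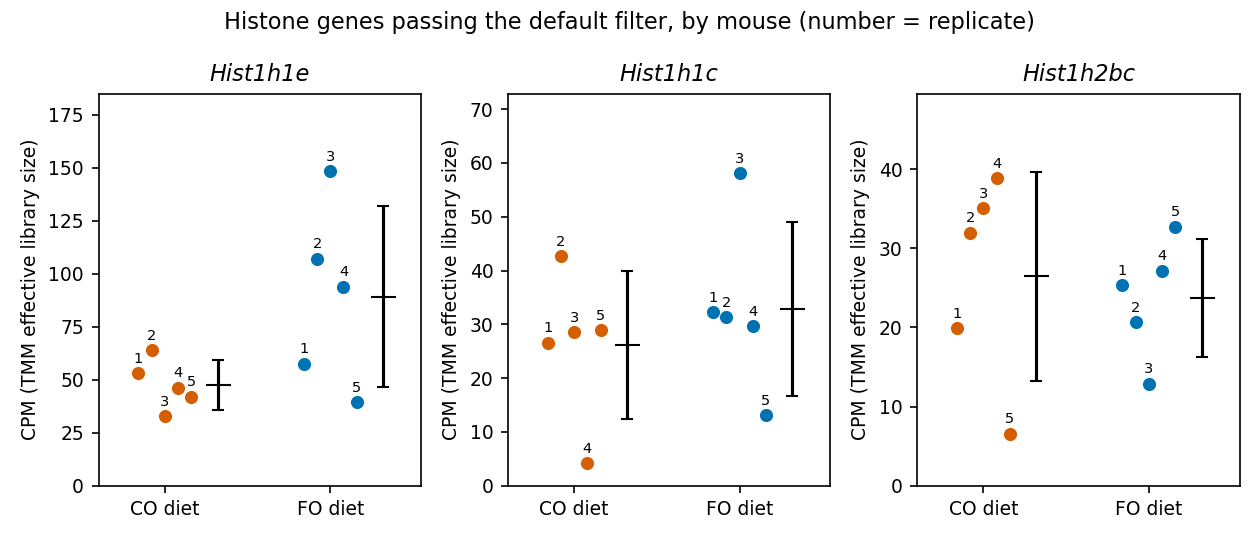
Points give the CPM (TMM effective library size) of 3 histone genes in each mouse, labelled with its replicate number, by diet, and the bars beside them give the mean ± SD of 5 mice. For Hist1h1e FO mice 2, 3 and 4 lie above all CO mice, while for Hist1h1c and Hist1h2bc the diets overlap over most of their range.

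Set per length, Hist1h1e had the highest level of the linker genes under both annotations tried. Over 10 mice it had 213 counts per kilobase of GENCODE exon, against 101 for Hist1h1c, 21.5 for Hist1h1b, 9.45 for Hist1h1a and 2.83 for Hist1h1d. Over the shorter RefSeq gene spans the same genes had 527, 217, 20.2, 9.40 and 27.1 counts per kilobase, so that the place of Hist1h1d moved with the annotation, whose models are 7425 and 776 bases long. Hist1h2bc had 130 counts per kilobase of GENCODE exon, between Hist1h1e and Hist1h1c. The counts of Hist1h1e were 1.79 to 3.41 times those of Hist1h1c in the FO mice and 1.15 to 2.00 times in 4 CO mice, and 11 times in CO mouse 4.

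The sparser genes were followed in a second edgeR fit, which took in all 14161 genes counted at least once, where 587 were called at an unadjusted p-value under 0.05 (4.15%), and where 17 histone genes could be tested. Of the 587 calls 365 were higher in FO mice, against 85 of 580 with the library total alone as scaling. The 3 histone genes called were Hist1h1e, Hist2h2bb and Hist1h4h, of which DESeq2 called Hist1h1e alone, and for Hist1h1e the fit gave a log2 fold change of 0.94 ± 0.32 (SE, unadjusted p = 0.00382, edgeR adjusted p = 0.905). Hist2h2bb, an H2b gene at chr3:96269752-96270132, had 3, 1, 1 and 2 counts in FO mice 1 to 4 and 0 in FO mouse 5 and in every CO mouse. Hist1h4h, an H4 gene, had 3 counts, all of them in CO mouse 4. Both genes entered this fit only through the diet in which they were counted, so their calls are given as a description, with no fold and no p-value, and nothing is read from them.

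Among the other linker genes, Hist1h1d (H1f3) had 7, 6, 0, 1 and 0 counts in the FO mice and 0, 1, 2, 0 and 4 in the CO mice. Hist1h1b (H1f5), a gene typical of dividing cells, had 1, 4, 0, 4 and 0 counts against 1, 0, 1, 0 and 5. Hist1h1a (H1f1) had 7 counts, 3 of them with FO and 4 with CO. Their log2 fold changes of 0.35 ± 0.84, -0.19 ± 0.94 and -0.78 ± 1.10 (SE) were smaller than their errors, and a difference was not detectable at this depth.

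Hist2h2be, an H2b gene on chromosome 3 with a long annotated 3′ end, had 1, 4, 0, 7 and 0 counts in the FO mice and 1, 0, 2, 0 and 1 in the CO mice, with a log2 fold change of 0.87 ± 0.95 (SE, edgeR, unadjusted p = 0.360). It was -0.01 without FO mouse 4. Hist1h2be had 6 counts in 5 mice, Hist1h2ae and Hist1h4d 2 each, and Hist1h2bj, Hist1h4c, Hist2h2ab, Hist2h2ac and Hist3h2ba 1 each, which is too few for a comparison.

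**Figure D2:**
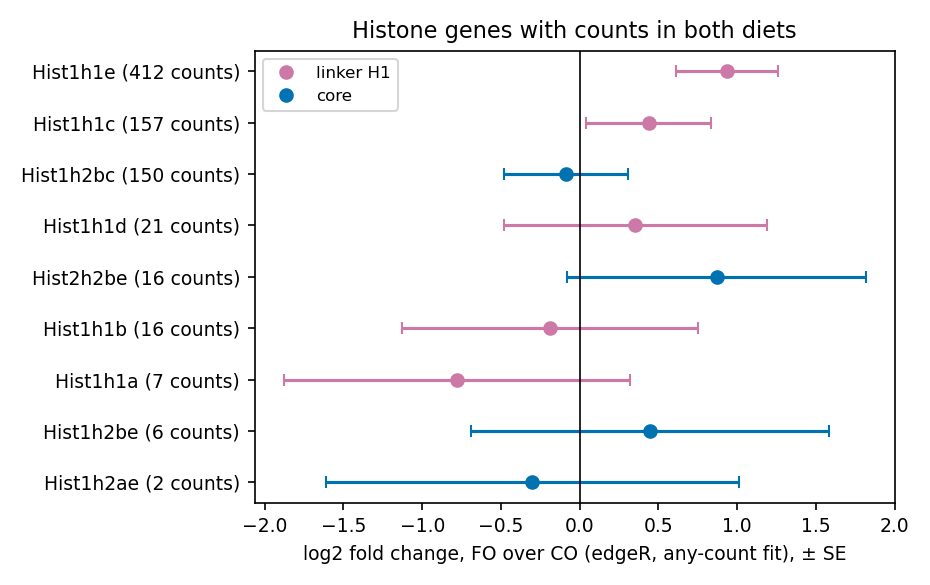
The log2 fold change (FO over CO) ± SE from the edgeR fit of all counted genes is plotted for the 9 histone genes with counts in both diets, ordered by their total counts. The bar of Hist1h1e (0.94) is the farthest from 0 relative to its length, and those of the genes with 21 counts or fewer include 0.

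Linker and core genes were compared over the 9 members counted in both diets. The 5 linker genes had a median log2 fold change of 0.35, with 3 above 0, and the 4 core genes a median of 0.18, with 2 above 0. The 12261 genes counted in both diets had a median of 0.02, with 6390 above 0. The difference between the 2 kinds of histone gene was not tested, since it rests on few genes of which 6 have 21 counts or fewer.

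In each mouse the histone counts were also summed and set over the counts outside Rn45s. FO mice 1 to 5 had 45.5, 48.4, 75.3, 59.8 and 28.5 histone counts per 100000, and CO mice 1 to 5 had 37.6, 48.5, 39.6, 32.8 and 26.9. FO mice 3 and 4 lay above every CO mouse, and FO mouse 5 below 4 of the 5 CO mice. The means were 51.5 ± 17.4 and 37.1 ± 8.06 (SD, n = 5 each). FO mouse 3 rested on 35 histone counts, and its exact Clopper-Pearson interval (95%) ran from 52.5 to 105 per 100000.

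The linker part averaged 41.3 ± 18.6 per 100000 in FO mice and 26.6 ± 7.35 in CO mice (SD, n = 5 each), with FO mice from 17.5 to 68.9 and CO mice from 17.8 to 37.7. The core part averaged 10.2 ± 3.31 per 100000 in FO mice and 10.5 ± 5.33 in CO mice, with ranges of 6.46 to 14.8 and 2.34 to 15.4. Outside Rn45s the difference in the sum thus lay in the linker part, which is mostly Hist1h1e. Over all counts, Rn45s included, FO mice exceeded CO mice by 0.183 histone counts per 100000, as the sum of 1.49 for the linker part and -1.30 for the core part, on a larger denominator that is mostly Rn45s in 9 of the 10 mice. Outside Rn45s the difference of the sum was 14.4, and 8.45 without FO mouse 3, where that of the linker part fell from 14.7 to 7.77.

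The linker share of the histone counts was 75.4%, 84.3%, 91.4%, 75.2% and 61.5% in FO mice 1 to 5 and 76.5%, 77.8%, 61.1%, 54.3% and 91.3% in CO mice 1 to 5. Its means of 77.6 ± 11.2% and 72.2 ± 14.6% (SD, n = 5 each) differed by less than the spread between mice. The lowest share belonged to CO mouse 4, where Hist1h2bc had 37 of 92 histone counts (exact interval of the linker share 43.6% to 64.8%) and where Rn45s took the smallest part of the counts. CO mouse 5 and FO mouse 3 had the highest, with exact intervals of 82.0% to 96.7% and 76.9% to 98.2%. Within the linker counts, Hist1h1e made up 69.9 ± 6.68% in FO mice and 60.6 ± 16.5% in CO mice (SD, n = 5 each).

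**Figure D3:**
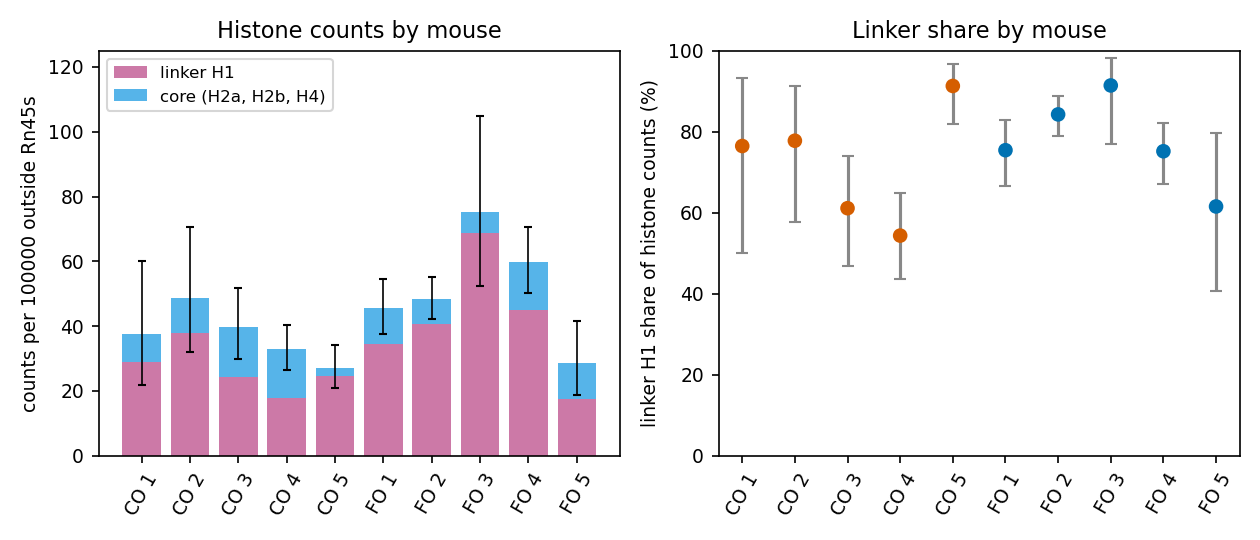
The left panel stacks linker and core histone counts per 100000 counts outside Rn45s for each mouse, with the 95% exact interval of the sum as an error bar, and the right panel gives the linker share of the histone counts with its 95% exact interval. FO mouse 3 has the highest sum (75.3) and the widest interval, and the linker shares of the diets overlap, with CO mouse 4 the lowest (54.3%) and FO mouse 3 the highest (91.4%).

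RNAs that lack a poly(A) tail were set beside these values, because the methods name 2 library kits without saying whether both were used for these mice. Malat1, a nuclear RNA whose end is a triple helix in place of a tail, made up 8.53% (FO mouse 2) and 6.15% (CO mouse 5) of what was counted outside Rn45s, beside 0.135% to 1.05% in the other 8 mice. The small nucleolar RNA genes together took 2.35% of FO mouse 2, 1.36% of CO mouse 5, 1.16% of CO mouse 3 and at most 0.494% elsewhere. In the histone sum FO mouse 2 (48.4 per 100000) and CO mouse 5 (26.9) did not stand apart together, being at the FO median and the lowest of the CO group. In the linker share and in the core part both leaned the same way. Their linker shares of 84.3% and 91.3% lay above the diet means of 77.6% and 72.2%. Their core parts of 7.61 and 2.34 per 100000 lay below the diet means of 10.2 and 10.5. Their linker parts of 40.8 and 24.6 per 100000 lay slightly below the diet means of 41.3 and 26.6. FO mouse 3 had the lowest Malat1 share of the FO mice (0.176%). Its linker share of 91.4% was nevertheless higher, and its core part of 6.46 per 100000 lower, than in FO mouse 2. Whether the linker share or the core part goes with the Malat1 share was not tested. Without FO mouse 2 and CO mouse 5 the log2 fold change of Hist1h1e was 0.77 (edgeR, unadjusted p = 0.0455, adjusted p = 0.999). Of 33 RNAs of this kind with any count, 3 were called higher in the FO group (Rmrp, Snora30 and Snora68) and 1 lower (Snord22), against 4.15% called among all genes. Rmrp and Snora68 had 4 and 6 counts, all of them in FO mice. They entered this fit only through that diet, so nothing is read from their calls or from the number called. Of the 210 counts of Snora30, 139 fell in FO mouse 2.

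Histone genes outside the clusters mostly give polyadenylated mRNA, many of them through the cell cycle. None of the 10 with any count was called, where 4.15% of all genes were, so that a list of this length would hold few calls at that rate. H3f3b, which encodes the replacement histone H3.3, averaged 184 ± 37.8 CPM in FO mice and 139 ± 48.2 CPM in CO mice (SD, n = 5 each). Its log2 fold change was 0.40 ± 0.27 with the default filter (SE, edgeR, unadjusted p = 0.156). H2afv, an H2A.Z gene, had 54.1 and 57.5 CPM. H3f3b alone had 917 counts, more than the 804 of all 68 cluster genes.

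None of the 19 genes for the transcription and 3′ end processing of histone mRNA and none of the 17 histone chaperones with any count was called, where 4.15% of all genes were, so that lists of this length would hold few calls at that rate. In the first list the 2 with the most counts were Srrt, which binds capped RNA, with a log2 fold change of -0.14, and Zcchc6, a uridylyl transferase, with -0.08. In the second, Atrx, which deposits H3.3, had -0.16 and Npm1, a nucleolar histone chaperone, 0.15. These values are from the fit of all genes with any count, where the medians of the 2 lists were 0.01 and 0.02, beside 0.05 over all genes. With the default filter Srrt and Zcchc6 had -0.18 and -0.10, and Atrx and Npm1 had -0.20 and 0.11.

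Of the 29 counted genes of S phase and proliferation, 20 had a log2 fold change above 0, with a median of 0.27 beside 0.05 over all genes, where 54.0% lay above 0. Pola1, the catalytic subunit of the DNA polymerase that primes replication, was the single one called, a share close to the 4.15% of all genes, so that nothing is read from it about the list. It had 16, 21, 6, 8 and 8 counts in FO mice 1 to 5 and 1, 0, 4, 7 and 5 in CO mice 1 to 5. Scaled to CPM this was 9.88 to 38.7 with FO and 0 to 8.76 with CO. These ranges did not overlap, but their nearest ends were close. The share of all genes without overlap was not computed, and Pola1 did not pass the default filter. In the fit of all genes with any count the log2 fold change of Pola1 was 1.48 ± 0.54 (SE, edgeR, unadjusted p = 0.00590, adjusted p = 0.905). In the same fit Stmn1, the most counted of the list, had a log2 fold change of 0.27 (0.24 with the default filter). Top2a, a topoisomerase of dividing cells, had 0.06, and neither gene was called.

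The tissue label was checked against marker genes. All 4 markers of alveolar type 2 cells had counts (1437 to 3029 CPM summed with FO and 858 to 2474 with CO), both club cell markers did, and of the alveolar type 1 markers Aqp5 was at 0. The 3 neutrophil markers S100a8, S100a9 and Retnlg summed to 43.6 to 288 CPM in the FO mice and to 26.6 to 42.6 CPM in the CO mice. The lowest FO and highest CO values (43.6 and 42.6) nearly met, and the share of all genes without overlap was not computed. All 3 genes are among those the study lists from its own comparison of the diets in these data, so nothing is read from the difference. The 4 lymphocyte markers summed to at most 27.6 CPM, and the 5 heart muscle markers to 32.7 to 313 CPM with FO and 26.6 to 161 CPM with CO. The part of these cells in the histone counts was not tested.

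The promoters of the members, from 250 bases before to 50 after the transcription start in RefSeq (GRCm38.p6), were searched on both strands for 4 short motifs, and 61 of the 68 genes had a promoter entry. The CCAAT box (CCAAT) was in 52 of 61, in 6 of 6 H1 promoters but in 3 of 12 H4 promoters, against 37.9% of 27025 promoters. The AC box of H1 genes (AAACACA) was in 5 of the 6 H1 promoters, those of Hist1h1b, Hist1h1c, Hist1h1d, Hist1h1e and Hist1h1t, and in 4 of 55 core promoters, against 7.14% of all promoters. The octamer (ATTTGCAT) was in 7 of 17 H2a and 6 of 16 H2b promoters and in none of the others, against 1.75% of all. The TATA box (TATAAA) was in 35 of 61, against 14.2% of all. The AC box was thus present in abundant Hist1h1e and Hist1h1c as in Hist1h1t, which had no count.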

How the data were processed

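For 10 mice the authors deposited unnormalized read counts for each gene symbol. Per the labels and the study's methods, single-end reads were aligned with STAR 2.4.0f1 to mm10, sorted with SAMtools 0.1.19 and counted with htseq-count. Read length, annotation, strand setting and the handling of multi-mapped reads are not given in the sources used here. The diet of each mouse was taken from its title. The members and gene lists were chosen with earlier results of these data known.

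The test was edgeR's quasi-likelihood test (edgeR 4.0.16, R 4.3.3, TMM scaling), after the default filter (minimum count of 10, minimum total of 15) and, for sparse genes, over all genes with any count. Genes were called at an unadjusted p-value under 0.05, as in the study, and Benjamini-Hochberg values are over all genes tested. Sums over histone genes were not tested. The test was checked on simulated data with known changes. The alternatives were DESeq2 1.42.0, other scalings and filters, robust estimation, Rn45s left out, the replicate number as a block, and mice left out. Named genes were those that passed the filter, those called, the 2 with the most counts of each class or list, and uncounted genes where their sequence is discussed. FO mouse 2 and CO mouse 5, with the most Malat1 counts, were also left out together. Transcripts were those of GENCODE vM21.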

Additional observations from a re-analysis of the deposited data

Results flagged for a closer look

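In 26 groups of 5 mice (13 measures in each diet), a mouse stood apart from the other 4 by Dixon's ratio in 4, where chance alone marks about 1 in 20 groups, or 1.3 here. Hist1h1e made up 58.1% of the linker counts in FO mouse 1, below the 71.7% of the next FO mouse. Of what was counted outside Rn45s, Malat1 made up 8.53% in FO mouse 2, against 0.928% in the next FO mouse, and 6.15% in CO mouse 5, against 1.05% in the next CO mouse. For the small nucleolar RNA genes it was 2.35% in FO mouse 2, against 0.452% in the next FO mouse. No mouse stood apart by this ratio in the CPM of the 6 histone genes with 10 or more counts or in the linker, core or summed histone counts per 100000.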

How the results depend on the processing

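Over 18 alternatives the log2 fold change of Hist1h1e stayed above 0, with adjusted p-values of at least 0.670, and the call was lost with library size alone (0.28, edgeR, unadjusted p = 0.674). Without a mouse it was 0.72 to 1.08. With the default filter 1 histone gene was called; 0 were called with library size alone or with at least 10 counts in every mouse, a filter that Hist1h1e fails, and 3 over all genes with any count. Leaving out a mouse gave 1 to 1. Over all genes with any count 3 were called, 1 with DESeq2 and 2 to 3 without a mouse. The replicate numbers did not pair the mice (mean correlation of same-numbered mice -0.12, range -0.41 to 0.03); with the replicate block 1 was called in either fit. Hist1h1c and Hist1h2bc passed the filter in 5 of the 10 fits without a mouse, where Hist1h2bc ran from -0.21 to 0.22 (without CO mouse 4); Hist2h2be, in all 10, ran from -0.013 (without FO mouse 4) to 1.52 (without CO mouse 3). Of all genes, 71 were called with the default filter, 36 with library size alone, 15 with at least 10 counts in every mouse and 154 without FO mouse 2; of all genes with any count, 587 were called, 138 with DESeq2 and 183 with the replicate block. The diet difference of the histone sum was 0.183 per 100000 over all counts and 14.4 outside Rn45s. Without a mouse the latter was 8.45 to 20.2 for the sum, 7.77 to 20.6 for the linker part, -2.30 to 0.972 for the core part and 0.907 to 10.1 percentage points for the linker share. Depth limits every histone gene: none had at least 10 counts in every mouse, and all but Hist1h1e, Hist1h1c and Hist1h2bc had at most 21 counts in all.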
